A study of Mus musculus with 18 samples.

Results

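The 9 genes described here, of the oligodendrocyte lineage, were followed in the hippocampus of wild-type mice and of mice with a knockout of *Ccny*, the gene for Cyclin Y. They were chosen by name from the deposited table, and 9 of 9 were among its 15329 genes. For the account they are divided by role into 5 mature myelin genes (*Mbp*, *Mog*, *Mag*, *Mobp* and *Cnp*), 2 lineage transcription factors (*Olig1* and *Olig2*) and 2 precursor genes (*Pdgfra* and *Cspg4*). The hippocampus of 18 C57BL/6J mice aged 8 to 10 weeks was sequenced, in 6 groups of 3. Wild-type animals (WT) and *Ccny* knockout animals (KO) were left untrained (WT_Basal, KO_Basal), or were trained in the Morris water maze up to the end of original learning (WT_OL, KO_OL) or of a reversal phase that followed it (WT_RL, KO_RL). How the KO allele was made is not given in the sources used here. Each mouse gave 1 library, and the labels name no batch, so that p-values measure only the spread between these libraries.

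Oligodendrocytes wrap axons in myelin, a multilayered membrane held compact by proteins such as myelin basic protein. They arise throughout life from oligodendrocyte precursor cells, which carry the growth factor receptor PDGFRα and the proteoglycan NG2. A precursor that leaves the cell cycle passes through a short-lived newly formed stage before it makes the myelin proteins, and in the adult hippocampus most myelin lies in the fibre tracts and the deeper layers.

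Reads on the listed genes came to between 29248557 and 37915576 per library, so that 1 read stood for 0.0274 to 0.0333 CPM, the count of a gene scaled to a common library total. All values are CPM after TMM scaling, a correction for differences in library composition, or their log2(CPM + 1) as deposited. *Ccny* itself was at 74 to 95.8 CPM in the 9 KO libraries and at 107 to 158 CPM in the 9 WT libraries, with no overlap. The group means were 92 CPM in KO_Basal against 155 CPM in WT_Basal, 75 against 128 CPM in OL and 79.7 against 128 CPM in RL, so the transcript was lower in KO libraries but still read in each of them. The log2 fold changes were -0.75, -0.75 and -0.66, and the first 2 passed adjustment by limma. Where these reads lie relative to the altered part of the gene is not known here, so they show a lower level and not a loss. Markers of hippocampal neurons summed to 637.6 to 1160 CPM per library, with none of the 10 genes at 0. Markers of choroid plexus, the tissue beside the hippocampus that makes cerebrospinal fluid, summed to between 218.7 and 12770 CPM, so that the libraries differed widely in these markers. In such bulk RNA, fewer cells of a type and less RNA per cell cannot be told apart.

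Upstream sequence was available in RefSeq (GRCm38.p6) for 7 of the 9 genes, and *Mbp* and *Olig1* had no entry. Windows from 250 bases before to 50 bases after the transcription start are shown for 3 mature myelin genes whose levels moved together from mouse to mouse and for both precursor genes, whose levels did not follow them. *Mag*, which moved with the other mature genes, and *Olig2* also had entries but were not among those chosen. There were 9 entries for the 7 genes, and the first of each gene shown was used. Capitals mark matches, on either strand, to ACAAAG or ACAATG, a core of the sites bound by SOX factors, CTGGCAC or CTGGTAC, a core of the sites bound by MYRF, the E-box letters CAGCTG, and the TATA box letters TATAAA.

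Mog, chr17:37023349-37023648, minus strand: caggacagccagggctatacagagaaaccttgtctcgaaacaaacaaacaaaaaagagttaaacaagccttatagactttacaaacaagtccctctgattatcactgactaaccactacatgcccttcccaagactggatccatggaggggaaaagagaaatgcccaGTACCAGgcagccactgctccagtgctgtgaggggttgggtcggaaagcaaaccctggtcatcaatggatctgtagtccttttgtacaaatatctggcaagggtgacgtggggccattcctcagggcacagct

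Mobp, chr9:120149492-120149791, plus strand: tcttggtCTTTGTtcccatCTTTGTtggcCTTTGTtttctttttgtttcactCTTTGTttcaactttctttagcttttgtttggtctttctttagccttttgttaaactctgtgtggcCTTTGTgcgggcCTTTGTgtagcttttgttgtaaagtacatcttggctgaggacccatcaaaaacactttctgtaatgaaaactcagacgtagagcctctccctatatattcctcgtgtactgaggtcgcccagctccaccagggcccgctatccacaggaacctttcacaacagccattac

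Cnp, chr11:100574689-100574988, plus strand: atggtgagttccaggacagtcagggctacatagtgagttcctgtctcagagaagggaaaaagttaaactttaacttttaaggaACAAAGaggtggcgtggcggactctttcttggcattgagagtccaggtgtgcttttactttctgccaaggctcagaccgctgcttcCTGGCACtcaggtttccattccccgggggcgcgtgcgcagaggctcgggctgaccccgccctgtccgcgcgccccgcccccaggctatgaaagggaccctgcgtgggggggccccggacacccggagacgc

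Pdgfra, chr5:75152001-75152300, plus strand: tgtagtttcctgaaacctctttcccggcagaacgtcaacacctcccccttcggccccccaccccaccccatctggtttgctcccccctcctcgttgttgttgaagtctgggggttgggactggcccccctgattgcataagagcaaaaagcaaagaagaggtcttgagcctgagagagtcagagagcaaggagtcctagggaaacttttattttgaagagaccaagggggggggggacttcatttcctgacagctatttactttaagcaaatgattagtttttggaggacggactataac

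Cspg4, chr9:56864854-56865153, plus strand: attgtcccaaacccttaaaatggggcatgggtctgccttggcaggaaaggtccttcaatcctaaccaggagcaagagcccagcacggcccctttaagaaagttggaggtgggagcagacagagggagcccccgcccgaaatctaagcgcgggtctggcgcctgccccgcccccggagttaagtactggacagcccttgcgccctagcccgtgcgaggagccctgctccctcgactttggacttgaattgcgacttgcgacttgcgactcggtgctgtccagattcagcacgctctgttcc

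The SOX letters matched 6 times in the *Mobp* window, 1 time in that of *Cnp*, and 0 times in those of *Mog*, *Pdgfra* and *Cspg4*. They occur in 28.6% of the 32851 RefSeq windows of this length. The MYRF letters matched 1 time each in *Cnp* and *Mog* and in neither precursor window, and 7.1% of all windows hold a match. Neither the E-box nor the TATA box, present in 16.3% and 13.6% of windows, matched in any of the 5, and none of the matches overlapped another. These are matches of letters only and say nothing of binding.

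By the mean over the 18 libraries the mature myelin genes had the highest CPM of the 9, although the mean of *Olig1* was above that of *Mog* in KO_OL, WT_RL and KO_RL. *Mbp* encodes the basic protein that holds the inner faces of the myelin membrane together, and lies on chromosome 18 (82475146 to 82585637, GENCODE M21 on GRCm38), as does *Ccny*. Without training it was at 3947, 3087 and 4144 CPM in WT mice and at 2925, 3634 and 3139 CPM in KO mice. After original learning the WT values were 3672, 5644 and 3303 CPM and the KO values 2402, 2955 and 2996 CPM. After reversal learning they were 2235, 3431 and 3976 CPM in WT and 3646, 2326 and 2463 CPM in KO. The highest library, WT_OL mouse 2, held 2.53 times the level of the lowest, WT_RL mouse 1, and the genotypes were free of overlap only after original learning. The share of all genes without such overlap was not counted, here or for the genes below.

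*Mobp*, which encodes a small basic protein of compact myelin (chromosome 9, 120149707 to 120181484), followed the same mice. In untrained mice it was at 436.2, 331.6 and 465.8 CPM in WT and at 296.8, 392.8 and 330.7 CPM in KO. Original learning left it at 485.6, 743.3 and 417.4 CPM in WT and at 284.5, 383.2 and 427.5 CPM in KO, and reversal learning at 287.7, 464.8 and 552.4 CPM in WT and at 487.3, 293.1 and 342.2 CPM in KO. WT_OL mouse 2 again stood highest, and WT and KO mice overlapped in each of the 3 states.

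*Mog* encodes a glycoprotein of the outermost myelin layer (chromosome 17, 37010743 to 37023398). Its untrained levels were 137.3, 105.5 and 131 CPM in WT and 81.99, 104.3 and 98.01 CPM in KO. After original learning it was at 109.5, 152.6 and 118.3 CPM in WT and at 64.5, 93.38 and 102.9 CPM in KO. The WT and KO mice did not overlap in either state, while after reversal learning, at 66.43, 95.96 and 113.8 CPM in WT and 105.2, 64.66 and 82.6 CPM in KO, they did.

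*Mag* encodes the adhesion molecule on the myelin face next to the axon (chromosome 7, 30899176 to 30914873). It was at 265.8, 216 and 263.3 CPM in WT_Basal and at 139.2, 186.1 and 210.4 CPM in KO_Basal, with no overlap. After original learning the levels were 221.8, 291.1 and 282.9 CPM in WT and 172.2, 216.4 and 250.3 CPM in KO. After reversal learning they were 158, 240.4 and 301.8 CPM in WT and 259.5, 172.6 and 207.9 CPM in KO, and the genotypes overlapped in both trained states.

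*Cnp* encodes an enzyme of the cytoplasmic channels of the myelin sheath (chromosome 11, 100574904 to 100591729), and some of its exons overlap those of *Dnajc7* on the other strand. Without training it was at 497.8, 397.9 and 477.4 CPM in WT and at 280.5, 346.4 and 364.6 CPM in KO, again without overlap. It was at 417.3, 599.5 and 549.4 CPM in WT_OL, at 330.2, 399 and 438 CPM in KO_OL, at 307, 453.3 and 535.5 CPM in WT_RL and at 453.1, 306.1 and 376.4 CPM in KO_RL. Whether the counting used strand is not stated, so reads of *Cnp* and *Dnajc7* may not be separable.

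The 2 transcription factors lie side by side on chromosome 16 and are made throughout the lineage, *Olig2* for the commitment of precursors and *Olig1* for their maturation. *Olig1* (91269772 to 91271933) was at 90.86, 88.49 and 87.7 CPM in WT_Basal and at 79.54, 87.67 and 87.86 CPM in KO_Basal. In the trained mice it was at 97.58, 135.7 and 108.8 CPM in WT_OL and at 91.46, 93.44 and 99.84 CPM in KO_OL. After reversal learning the values were 92.99, 121 and 117.6 CPM in WT and 111.6, 87.2 and 97.67 CPM in KO. Trained WT mice of both states lay above all 3 untrained WT mice, as did KO_OL above KO_Basal.

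*Olig2* (91225457 to 91228677) was the lower of the pair. It was at 22.61, 23.55 and 25.56 CPM in WT_Basal and at 21.65, 21.33 and 23.1 CPM in KO_Basal. It was at 20.35, 27.8 and 27.99 CPM in WT_OL, 16.84, 20.6 and 24.23 CPM in KO_OL, 22.14, 25.33 and 29.31 CPM in WT_RL and 23.39, 22.48 and 23.71 CPM in KO_RL. The mice of WT_OL, KO_OL and WT_RL spread more widely than the untrained mice, and those of KO_RL lay closest together.

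Of the precursor genes, *Pdgfra* encodes the receptor through which platelet-derived growth factor keeps precursors dividing (chromosome 5, 75152292 to 75198215). Its levels were 75.48, 67.77 and 68.18 CPM in WT_Basal and 76.55, 69.03 and 79.27 CPM in KO_Basal. They were 71.06, 60.4 and 80.67 CPM in WT_OL and 69.53, 74.73 and 68.38 CPM in KO_OL, and after reversal learning 73.37, 67.8 and 75.03 CPM in WT and 75.85, 69.7 and 68.16 CPM in KO. The whole set of mice lay within 1.34-fold, and both extremes were WT_OL mice, so no state or genotype stood apart.

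*Cspg4* encodes NG2 (chromosome 9, 56865033 to 56899870). It was at 20.18, 19.02 and 16.52 CPM in WT_Basal and at 17.99, 20.76 and 23.72 CPM in KO_Basal. The levels were 21.44, 16.79 and 26.66 CPM in WT_OL, 21.35, 24.21 and 25.21 CPM in KO_OL, 22.42, 21.29 and 19.86 CPM in WT_RL and 22, 23.55 and 26.12 CPM in KO_RL, with overlap between genotypes in each state. Both genes are also made outside the lineage, *Cspg4* by pericytes and *Pdgfra* by fibroblasts. The summed level of 8 pericyte markers was 132.5 to 209.7 CPM and that of 10 fibroblast markers 186.8 to 485.7 CPM over the 18 libraries, with none at 0 in any group, and the share of *Pdgfra* and *Cspg4* reads from such cells was not tested.

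**Figure D1:**
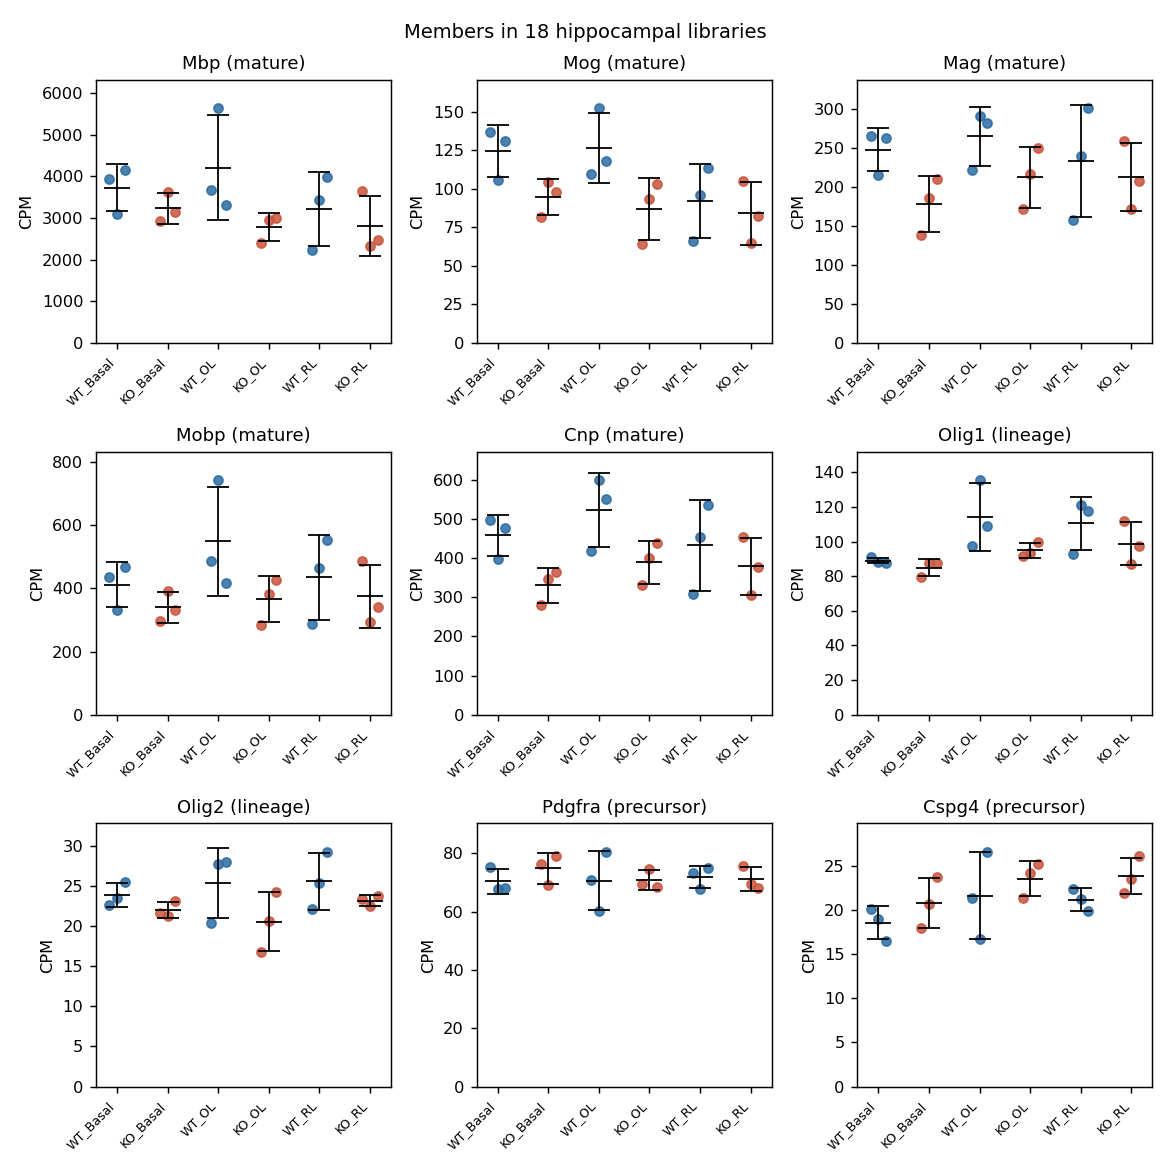
Level of each of the 9 genes in CPM (vertical axes, from 0) in the 3 mice of each group (points, WT blue, KO red), with the mean and SD of the group in black. The mature myelin genes spread between mice of the same group, as *Mbp* does from 2235 to 3976 CPM in WT_RL, while all *Pdgfra* points lie between 60.4 and 80.67 CPM.

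Per kilobase of longest transcript, the mean levels over 18 libraries ran from *Mbp* at 694 CPM per kilobase through *Cnp*, *Mobp*, *Mag*, *Mog*, *Olig1*, *Pdgfra* and *Olig2* to *Cspg4*. The step from *Mbp* to *Cnp* held in 18 of 18 libraries, as did those from *Mobp* to *Mag*, *Mag* to *Mog*, *Olig1* to *Pdgfra* and *Olig2* to *Cspg4*. The neighbours *Cnp* and *Mobp* kept this order in 15 of 18 libraries, *Mog* and *Olig1* in 15, and *Pdgfra* and *Olig2* in 14. The order within these 3 pairs is therefore not settled in every mouse.

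The spread between mice of the same group was larger for the mature myelin genes than for the precursor genes. The within-group SD of log2(CPM + 1) was 0.27 for *Cnp*, 0.30 for *Mog* and *Mag*, 0.31 for *Mbp* and 0.36 for *Mobp*. It was 0.15 for *Olig1*, 0.17 for *Olig2*, 0.11 for *Pdgfra* and 0.18 for *Cspg4*. Among the 9012 genes with a mean log2 level of 4 or more, the median SD was 0.12. Between 95.7% and 98.7% of these genes varied less than each mature myelin gene, 68.6% less than *Olig1*, 76.3% less than *Olig2*, 79.2% less than *Cspg4* and 43.6% less than *Pdgfra*.

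Mature myelin genes rose and fell together from mouse to mouse, and the precursor genes did not follow them. With group means removed, 10 of 10 pairs of mature myelin genes passed the correlation test over 18 libraries (r from 0.784 to 0.986, 100000 permutations within groups, Benjamini-Hochberg over 36 pairs). *Mbp* and *Mobp* correlated most closely, with r = 0.986. *Olig1* followed the mature genes in 5 of 5 pairs, at r = 0.865 with *Cnp* (rho = 0.899), and *Olig2* in 3 of 5. Of the 10 pairs of a mature and a precursor gene, 0 passed, with r from -0.503 to 0.0993 and a median of -0.0986. For *Mbp* and *Pdgfra*, r was -0.277 (permutation p = 0.463) and rho -0.199 (p = 0.535), and r moved to -0.021 without the 2 libraries farthest from the median. *Pdgfra* and *Cspg4* were at r = 0.564 with each other (adjusted permutation p = 0.258), which fell to 0.0566 without 2 libraries and so rests on them. Altogether 18 of 36 pairs passed. With group means left in, 21 of 36 passed, among them 1 of the 10 mature and precursor pairs, *Mbp* and *Cspg4* (r = -0.587, rho = -0.534, adjusted permutation p = 0.0182 and 0.0453, r = -0.48 without 2 libraries). Genes in a library share its depth and dissection, and the pairs are not independent of each other.

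**Figure D2:**
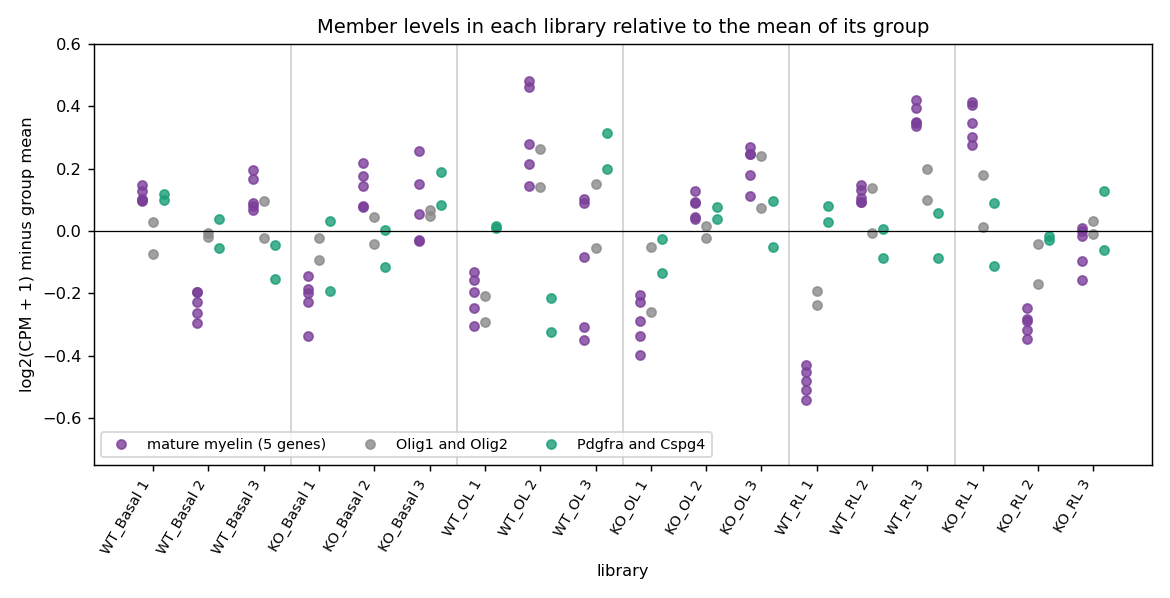
Log2(CPM + 1) of each gene minus the mean of its group (vertical axis) in the 18 libraries (horizontal axis), with mature myelin genes in purple, *Olig1* and *Olig2* in grey and *Pdgfra* and *Cspg4* in green. The 5 purple points lie together in most libraries, low in WT_RL mouse 1 and high in WT_RL mouse 3, and lie on both sides of 0 in WT_OL mouse 3, KO_Basal mouse 3 and KO_RL mouse 3, and the green points do not move with them.

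**Figure D3:**
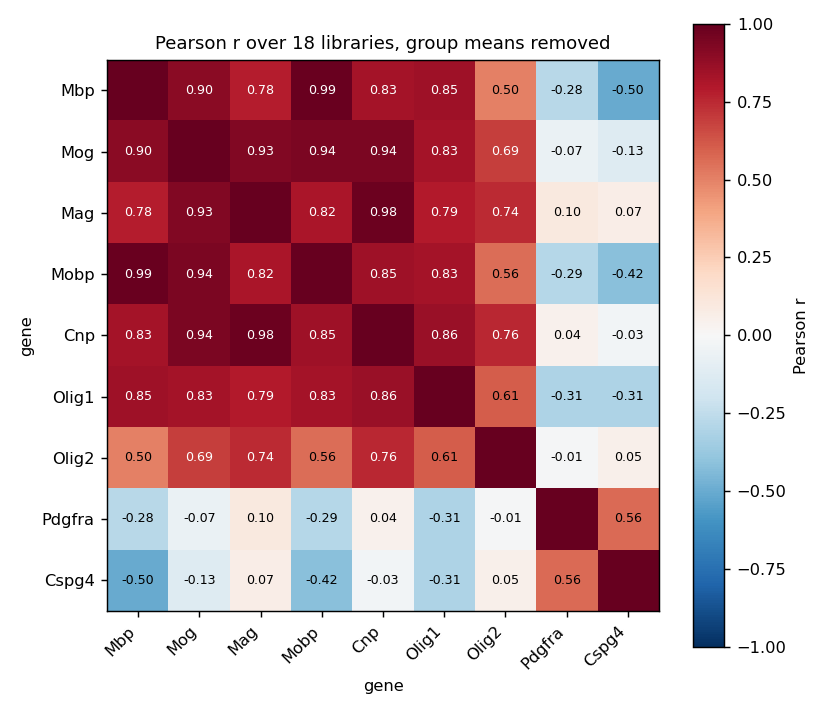
Pearson r between each pair of the 9 genes over 18 libraries with group means removed (colour and number, both axes list the genes). The 5 mature genes form a block with r of 0.784 or more, and the pairs of a mature and a precursor gene lie between -0.503 and 0.0993.

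The genes whose pattern over the 18 libraries lay closest to *Mbp* were *Mobp* (r = 0.986), *Trp53inp2* (0.97), *Dbndd2* (0.969), *Golga7* (0.968) and *Pdlim4* (0.966), with group means removed. Those closest to *Pdgfra* were *Twsg1* (0.915), *Sde2* (0.909), *Yy1* (0.891), *Gmps* (0.891) and *Cpd* (0.889). No gene stood on both lists.

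The spread of *Mbp* moved with markers of other cells. In 18 relations of *Mbp* and *Pdgfra* with 9 marker lists, chosen after the data had been seen and with group means removed, *Mbp* correlated with choroid plexus markers (r = 0.754, rho = 0.8, adjusted permutation p = 0.02 and 0.009, r = 0.676 without 2 libraries). It correlated inversely with hippocampal neuron markers (r = -0.693, rho = -0.73, adjusted permutation p = 0.0448 and 0.0254, r = -0.548 without 2 libraries). The relation with striatum markers passed for rho only (0.593, adjusted permutation p = 0.0254, against r = 0.502 and adjusted p = 0.0911). The other 15 relations did not pass. Among them were those of *Pdgfra* with fibroblast markers (r = 0.497, adjusted permutation p = 0.126) and with pericyte markers (r = -0.193, adjusted permutation p = 0.683). *Cspg4* was not compared with any marker list. How far tissue taken along in dissection accounts for the spread was not tested.

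The balance of mature to precursor genes was taken as the mean log2 level of the 5 mature genes minus that of *Pdgfra* and *Cspg4*. It was 3.63 ± 0.22 (SD, n = 3) in WT_Basal and 3.15 ± 0.17 in KO_Basal, 3.70 ± 0.51 in WT_OL and 3.15 ± 0.20 in KO_OL, and 3.345 ± 0.48 in WT_RL and 3.117 ± 0.32 in KO_RL. Each WT group mean lay above its KO counterpart, and the mice of both genotypes overlapped only after reversal learning. After original learning they all but touched, with WT_OL mouse 3 at 3.339 and KO_OL mouse 3 at 3.334. Single libraries ran from 2.81 (WT_RL mouse 1) to 4.29 (WT_OL mouse 2). The mean of the mature genes spanned 1.15 on the log2 scale over the 18 libraries, and that of the precursor genes 0.52.

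Whether the genotype differed was then tested with limma, with p-values adjusted over all 15329 genes. In untrained mice 0 of 9 genes passed, beside 0.0196% of all genes. At an unadjusted p under 0.05, 2 of 9 were lower in KO, beside 4% of all genes in either direction. These were *Cnp*, with a log2 fold change of -0.47 (standard error 0.195, 95% interval -0.88 to -0.06), and *Mag*, with -0.49 (standard error 0.217, 95% interval -0.95 to -0.03), both with an adjusted p of 0.994 by limma. *Mog* was at -0.39, *Mobp* at -0.27 and *Mbp* at -0.20, while *Pdgfra* was at 0.09 and *Cspg4* at 0.15. The median of the 5 mature genes was -0.39, beside 0.01 over all genes. Choroid plexus markers had 12 of 12 log2 fold changes below 0 (median -2.39, 12 with an unadjusted p under 0.05). They summed to 230.4 to 1143 CPM in KO_Basal and to 1455 to 6489 CPM in WT_Basal, without overlap. Hypothalamus markers had 8 of 9 log2 fold changes above 0 (median 0.58, 4 with an unadjusted p under 0.05). Their sums were 3.417 to 110.7 CPM in KO_Basal (median 5.697) and 4.395 to 9.325 CPM in WT_Basal. Only the highest KO_Basal library thus lay above the WT range. Microglia markers had 10 of 10 log2 fold changes above 0 (median 0.183, 1 unadjusted). Those of hippocampal neurons (median -0.14) and of striatum (median -0.294) each had 9 of 10 below 0, with 0 unadjusted. The part of any of these tissues or cells in the difference was not tested.

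After original learning the estimates for the mature genes also lay below 0. Again 0 of 9 passed the adjusted threshold, beside 0.0652% of all genes, and 6 of 9 were lower in KO at an unadjusted p under 0.05, beside 18% of all genes. *Mbp* was at -0.56 (standard error 0.235, adjusted p = 0.234), *Mog* at -0.55 (standard error 0.213, adjusted p = 0.212) and *Mobp* at -0.56 (standard error 0.255, adjusted p = 0.26). *Cnp* was at -0.42, *Olig2* at -0.29 and *Olig1* at -0.25. *Mag*, at -0.32, did not reach the unadjusted threshold, and *Pdgfra* was at 0.01 with a 95% interval from -0.18 to 0.21, and its sign changed with TMM undone (-0.05), with GC correction (-0.01), and without WT_OL mouse 2 (-0.10) or KO_OL mouse 2 (-0.03). With libraries weighted by their quality, a fit whose weights stopped before convergence, *Mbp*, *Mog* and *Mobp* passed, at -0.37, -0.30 and -0.38 (adjusted p = 0.0142, 0.0372 and 0.0197). In the same fit *Cnp*, *Mag* and *Olig1* moved close to 0, to -0.081, -0.039 and -0.037, so the mature genes did not hold together there. The median of the mature genes was -0.55, beside 0.00 over all genes. Here the choroid plexus markers overlapped between the genotypes, at 3652 to 6996 CPM in KO_OL and 3148 to 4920 CPM in WT_OL.

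Markers of other cells also differed after original learning. Fibroblast markers had 10 of 10 log2 fold changes below 0 (median -0.71, 7 with an unadjusted p under 0.05), pericyte markers 8 of 8 (median -0.36, 4 unadjusted) and astrocyte markers 10 of 10 (median -0.23, 4 unadjusted). Their summed levels did not overlap between genotypes, with fibroblast markers at 264.4 to 336.7 CPM in KO_OL and 374.5 to 415.8 CPM in WT_OL. Pericyte markers summed to 138.5 to 153.1 CPM against 175.2 to 209.7 CPM, and astrocyte markers to 6033 to 6263 CPM against 6598 to 8241 CPM. Striatum markers had 10 of 10 above 0 (median 0.92, 3 unadjusted), at 215.2 to 667 CPM in KO_OL and 211.5 to 218.3 CPM in WT_OL. None of these marker genes passed adjustment, and their part in the lower myelin levels was not tested.

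After reversal learning 0 of 9 passed, beside 0% of all genes, and 0 of 9 had an unadjusted p under 0.05, beside 4.93%. The 5 mature genes were between -0.20 and -0.10, with a median of -0.17, and for *Mbp* the 95% interval ran from -0.68 to 0.32. The estimate after original learning, -0.56, lies inside this interval. Without WT_RL mouse 3 or KO_RL mouse 2 the estimate for *Mog* turned to 0.05, *Mag* turned to 0.11 and 0.04, and *Cnp* to 0.003 without WT_RL mouse 3, so the direction of single genes here rests on those mice. Choroid plexus markers had 12 of 12 log2 fold changes above 0 (median 1.15, 0 unadjusted). Their sums overlapped, at 218.7 to 12770 CPM in WT_RL and 2118 to 7727 CPM in KO_RL. Striatum markers had 10 of 10 above 0 (median 1.20, 5 unadjusted) and astrocyte markers 10 of 10 below (median -0.18, 2 unadjusted). Those of thalamus and habenula had 9 of 10 below 0 (median -0.206, 4 unadjusted). The part of any of these tissues was not tested.

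Averaged over the 3 states, a comparison added after the pattern had been seen, 7 of 9 genes were lower in KO at an unadjusted p under 0.05 (8.36% of all genes), and 0 of 9 passed adjustment (0.0326% of all genes). *Cnp* was lower by a log2 fold change of -0.35 (95% interval -0.59 to -0.11, adjusted p = 0.417) and *Mog* of -0.35 (95% interval -0.62 to -0.09, adjusted p = 0.475). *Mobp* was at -0.34, *Mbp* at -0.31, *Mag* at -0.30, *Olig2* at -0.18 and *Olig1* at -0.16. *Pdgfra*, at 0.03 (95% interval -0.08 to 0.14), and *Cspg4*, at 0.15 (95% interval -0.01 to 0.32), lay on the other side of 0, although *Pdgfra* turned to -0.01 without WT_OL mouse 2. In this comparison the markers of astrocytes also had 10 of 10 log2 fold changes below 0 (median -0.09, 4 with an unadjusted p under 0.05), those of choroid plexus 12 of 12 (median -0.30, 0 unadjusted) and those of fibroblasts 8 of 10 (median -0.315, 4 unadjusted). Striatum markers had 10 of 10 above 0 (median 0.63, 5 unadjusted), and the part of any of these tissues was not tested. Since the mature genes moved as a block between mice, their count is not that of independent genes.

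**Figure D4:**
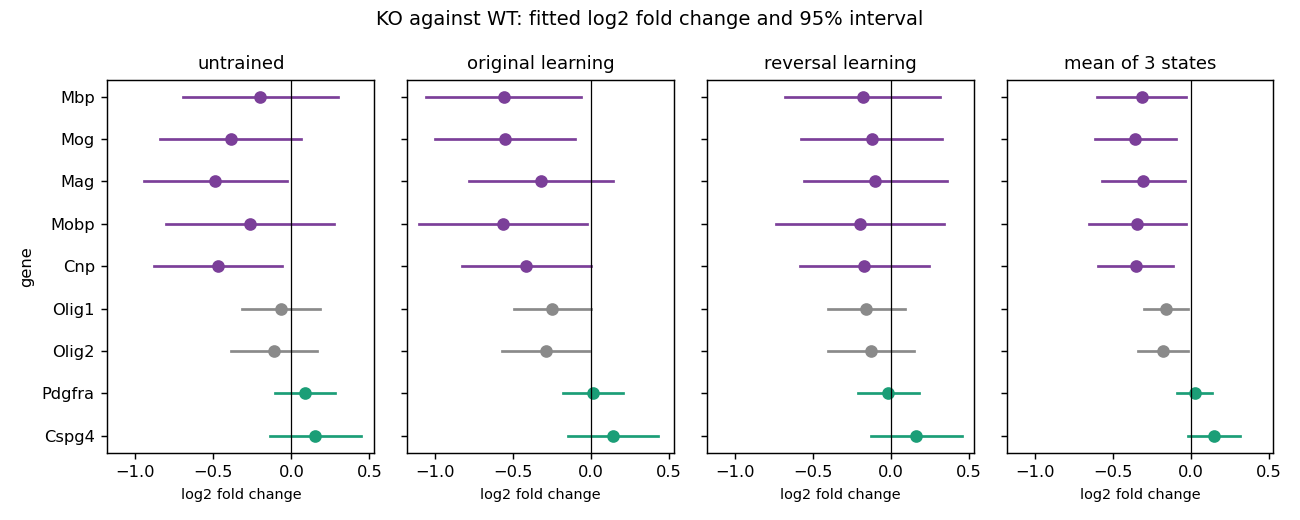
Fitted log2 fold change of KO against WT (points, horizontal axes) with the 95% interval (lines) for the 9 genes in untrained mice, after original learning, after reversal learning and averaged over the 3 states. The 5 mature genes (purple) lie below 0 in every panel, *Pdgfra* (green) lies between -0.02 and 0.09, and none of the genes passed adjustment over all genes.

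Of 29 other mature myelin genes, 28 had a log2 fold change below 0 in untrained mice (median -0.39, 10 with an unadjusted p under 0.05), 26 after original learning (median -0.33, 9 unadjusted), and 27 after reversal learning (median -0.18, 2 unadjusted). The unadjusted shares over all genes were 4%, 18% and 4.93%. None of the 29 passed adjustment by limma in any of the 3, although 4 did after original learning without WT_OL mouse 3, and 11 with library weights. The 20 other precursor genes were split, with 14 above and 6 below 0 in untrained mice (median 0.05), 7 above and 13 below after original learning (median -0.09), and 12 above and 8 below after reversal learning (median 0.03). The 13 genes of newly formed oligodendrocytes had medians of -0.02, -0.11 and -0.06 in the 3 states.

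Training was tested within each genotype against the untrained mice, which the comparisons of original and of reversal learning share. In WT mice after original learning 0 of 9 genes passed (9.5% of all genes), and 1 of 9 had an unadjusted p under 0.05 (25.9% of all genes). This was *Olig1*, higher by a log2 fold change of 0.34 (standard error 0.117, 95% interval 0.09 to 0.59, adjusted p = 0.0775), with no overlap. Without WT_OL mouse 1 it passed, with an adjusted p of 0.0386. In KO mice 0 of 9 genes passed at either threshold, beside 23.5% and 36.6% of all genes, and *Olig1* was at 0.16 (95% interval -0.09 to 0.41).

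After reversal learning 0 of 9 genes passed in WT mice (15.7% of all genes), and 2 of 9 had an unadjusted p under 0.05 (30.3% of all genes). *Olig1* was at 0.30 (standard error 0.117, adjusted p = 0.093), and passed without WT_RL mouse 1 (adjusted p = 0.0291) or without WT_OL mouse 2 (adjusted p = 0.0391). *Mog* was at -0.46 (standard error 0.213, adjusted p = 0.159). In KO mice 0 of 9 passed at either threshold, beside 23.6% and 36.6% of all genes, with *Olig1* at 0.21 and *Mog* at -0.19. The shares of members with an unadjusted call lay below those of all genes in each of these 4 comparisons.

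From original to reversal learning 0 of 9 genes passed in WT mice (0.261% of all genes), and 1 of 9, *Mog*, had an unadjusted p under 0.05 (16.4% of all genes), at -0.48 with an adjusted p of 0.287. In KO mice 0 of 9 passed at either threshold, beside 0.0196% and 4.81%. The change with training was also compared directly between genotypes. For original learning 0 of 9 genes passed at either threshold, beside 0% and 12.4% of all genes, and for reversal learning 0 of 9, beside 0% and 4.99%. The difference in change for *Mbp* was -0.36 (95% interval -1.07 to 0.34) for original learning and 0.02 (95% interval -0.69 to 0.72) for reversal learning. The second value turned negative without mouse 1 or 3 of WT_Basal or KO_Basal, or mouse 1 of WT_RL or KO_RL (down to -0.22), and with 3 mice per group both intervals are wide.

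Single genes of the lineage outside the 9 passed the test for training, in lists whose called shares are set beside those of all genes. *Aspa*, the enzyme that releases acetate from N-acetylaspartate in oligodendrocytes, was at 41.45, 34.04 and 42.11 CPM in WT_Basal and at 14.6, 12.27 and 25.71 CPM in WT_RL. It was at 26.51, 34.85 and 28.15 CPM in KO_Basal and at 18.17, 12.52 and 12.14 CPM in KO_RL, so that trained and untrained mice did not overlap in either genotype. It fell by 1.18 on the log2 scale in WT_RL (standard error 0.217, adjusted p = 0.00229 by limma) and by 1.03 in KO_RL (adjusted p = 0.00326). In WT_OL it was at 24.56, 24.74 and 24.51 CPM, also below all 3 WT_Basal mice, but was not called. In KO_OL, at 12.02, 18.99 and 13.6 CPM, it fell by 0.97 (adjusted p = 0.00454). These 3 calls held in each of 29 alternatives.

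*Opalin*, a membrane protein of myelinating oligodendrocytes, was at 47.25, 39.23 and 43.58 CPM in WT_Basal and at 15.97, 24.17 and 25.67 CPM in WT_RL. In KO it was at 25.05, 34.88 and 31.47 CPM without training and at 23.57, 15.55 and 18.45 CPM after reversal learning. After reversal learning its levels did not overlap those of untrained mice of the same genotype, but WT_OL mouse 2, at 46.63 CPM, lay inside the WT_Basal range. It fell by 0.97 in WT_RL (adjusted p = 0.00235 by limma) and by 0.65 in KO_RL (adjusted p = 0.0166). The KO call was lost without KO_Basal mouse 2 (adjusted p = 0.078), KO_RL mouse 2 (adjusted p = 0.077) or KO_RL mouse 3 (adjusted p = 0.0539). Of the 29 other mature myelin genes, 3 fell and 0 rose in WT_RL, 2 fell and 1 rose in KO_RL, 1 fell and 2 rose in KO_OL, and 0 passed in WT_OL, where 2 had an unadjusted p under 0.05. The called share of the list was 10.3% in each of WT_RL, KO_RL and KO_OL, below the 15.7%, 23.6% and 23.5% of all genes. The count rose from 3 to 9 in WT_RL without WT_RL mouse 3 and to 5 without WT_OL mouse 3. In KO_RL it was 1 without KO_Basal mouse 2 or KO_RL mouse 3 and 5 without WT_RL mouse 1. In KO_OL it was 1 without KO_Basal mouse 1 or KO_OL mouse 2 or 3, and 5 without WT_RL mouse 3.

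The 2 genes that rose in KO_OL were *Trf*, which encodes the iron carrier transferrin, by 0.75 (adjusted p = 0.0312), and *Gsn*, which encodes gelsolin, by 0.64 (adjusted p = 0.0391). *Trf* was no longer called without any one of KO_Basal mice 1 and 3 or KO_OL mice 2 and 3 (adjusted p from 0.0559 to 0.126), nor *Gsn* without KO_Basal mouse 1 or 2, KO_OL mouse 2 or 3, or KO_RL mouse 3 (adjusted p from 0.05 to 0.162). *Trf* is made in choroid plexus as well as in oligodendrocytes. The choroid plexus markers summed to 3652 to 6996 CPM in KO_OL, against 230.4 to 1143 CPM in KO_Basal, and the part of that tissue in the rise was not tested.

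Of 13 genes of newly formed oligodendrocytes, 2 rose and 0 fell in WT_RL, and 2 rose and 1 fell in KO_RL. These are 15.4% and 23.1% of the list, near the 15.7% and 23.6% of all genes. Leaving out WT_Basal mouse 2 or WT_RL mouse 2 gave 0 in WT_RL, WT_Basal mouse 1 gave 1 and WT_RL mouse 1 gave 4. In KO_RL 0 were left without KO_Basal mouse 1 or KO_RL mouse 1, and 1 without KO_Basal mouse 2. The risers were *Gpr17*, a receptor of that stage, and *Tns3*, which encodes a focal adhesion protein, in both genotypes. *Gpr17* was at 66.66, 56.65 and 70.03 CPM in WT_Basal and at 80.73, 102.2 and 99.1 CPM in WT_RL. In KO it was at 66.57, 58.05 and 78.03 CPM without training and at 93.29, 79.78 and 97.12 CPM after reversal learning. Mice after reversal learning did not overlap untrained mice in either genotype, although KO_OL mice 1 and 2, at 72.59 and 69.39 CPM, lay inside the KO_Basal range. The log2 fold change after reversal learning was 0.54 in WT (standard error 0.144, adjusted p = 0.0201 by limma) and 0.41 in KO (adjusted p = 0.0471).

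The *Gpr17* calls were fragile. In WT the call was lost without WT_Basal mouse 1 or 2 or WT_RL mouse 2 or 3 (adjusted p from 0.0512 to 0.0784), and in KO it was lost in 12 of 29 alternatives, without any one of WT_Basal mice 1 and 3, KO_Basal mice 1 and 2, KO_OL mice 1 and 2 or KO_RL mice 1 and 3 among them (adjusted p from 0.0525 to 0.191). *Tns3* rose by 0.39 in WT_RL (adjusted p = 0.0224) and by 0.40 in KO_RL (adjusted p = 0.0138). It was lost in WT without WT_Basal mouse 2 or WT_RL mouse 2 or 3 (adjusted p from 0.0503 to 0.0902), and in KO without KO_Basal mouse 1 or KO_RL mouse 1 (adjusted p = 0.07 and 0.0669). After original learning 0 of the 13 genes passed in WT, where 4 had an unadjusted p under 0.05, and in KO 1 passed, *Rras2*, which encodes a small GTPase and fell by 0.40 (adjusted p = 0.0106).

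**Figure D5:**
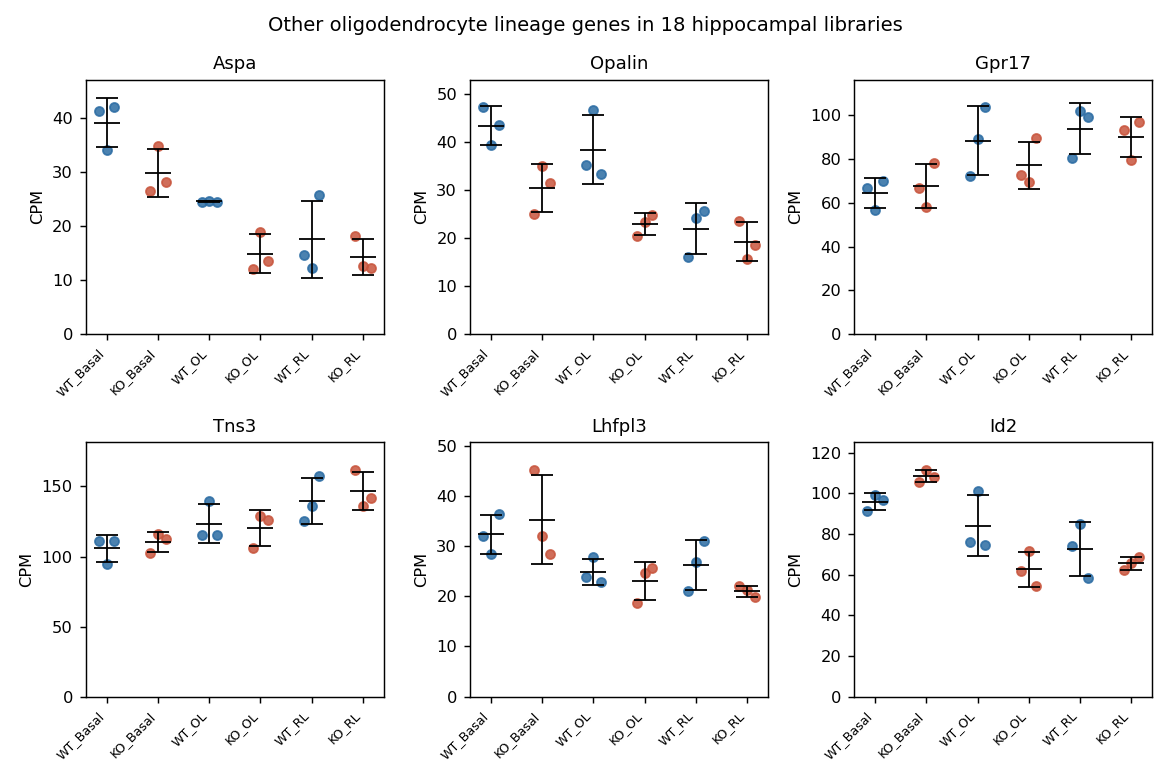
CPM (vertical axes, from 0) of 6 other lineage genes in the 3 mice of each group (points, WT blue, KO red), with group mean and SD in black. *Aspa* and *Opalin* lie lower after reversal learning than without training in both genotypes, at 12.14 to 25.71 CPM and 15.55 to 25.67 CPM, and *Gpr17* and *Tns3* lie higher.

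Of the 20 other precursor genes, 1 rose and 1 fell in WT_OL, 0 rose and 4 fell in KO_OL, 0 passed in WT_RL, where 6 had an unadjusted p under 0.05, and 2 rose and 3 fell in KO_RL. The called shares were 10%, 20%, 0% and 25%, beside 9.5%, 23.5%, 15.7% and 23.6% of all genes. With 1 library left out the number called ran from 0 to 3 in WT_OL (0 without any one WT_Basal mouse, 1 without WT_OL mouse 2). In KO_OL it ran from 1 (without KO_Basal mouse 1 or KO_OL mouse 1) to 7 (without WT_OL mouse 2). It ran from 0 to 5 in WT_RL (5 without WT_OL mouse 2, 1 without WT_OL or WT_RL mouse 3) and from 3 (without KO_Basal mouse 1 or KO_RL mouse 3) to 7 in KO_RL. *Luzp2*, a leucine zipper gene, fell by 0.58 in KO_OL (adjusted p = 0.00137 by limma) and by 0.64 in KO_RL (adjusted p = 0.000648). Both calls were lost with a correction for GC content, where the changes were -0.22 and -0.34 (adjusted p = 0.216 and 0.057). *Luzp2* also fell by 0.41 in WT_OL (adjusted p = 0.024). That call was lost without any one WT_Basal mouse or WT_OL mouse 3 (adjusted p from 0.0583 to 0.0839). *Lhfpl3*, a membrane protein gene of precursors, fell by 0.69 in KO_RL (adjusted p = 0.00693), a call kept in each of 29 alternatives. It also fell by 0.58 in KO_OL (adjusted p = 0.0184 by limma). That call was lost without KO_Basal mouse 1 or KO_OL mouse 1 (adjusted p = 0.108 and 0.0986).

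Among 12 other regulators of the lineage, *Id2*, an inhibitor of differentiation made in many cell types, fell by 0.79 in KO_OL (adjusted p = 0.000551 by limma) and by 0.72 in KO_RL (adjusted p = 0.0011), in each of 29 alternatives. It also fell by 0.41 in WT_RL (adjusted p = 0.0406 by limma). That call was lost without any one WT_Basal mouse or WT_RL mouse 1 or 3, among others (adjusted p from 0.0506 to 0.157). *Id4*, of the same family and also made in astrocytes, fell by 0.54 in KO_OL (adjusted p = 0.00432) and by 0.58 in WT_RL (adjusted p = 0.00455), again in each of 29 alternatives. *Id4* also fell by 0.56 in WT_OL (adjusted p = 0.00876) and by 0.46 in KO_RL (adjusted p = 0.0109). The KO_RL call was lost without KO_RL mouse 2 (adjusted p = 0.0506). Over the whole list 1 rose and 1 fell in WT_OL, 0 rose and 2 fell in KO_OL and in WT_RL, and 1 rose and 3 fell in KO_RL. These are 16.7%, 16.7%, 16.7% and 33.3% of the list, beside 9.5%, 23.5%, 15.7% and 23.6% of all genes, and leaving out 1 library gave 1 to 2, 2 to 3, 1 to 2 and 2 to 5 calls. The 2 in KO_RL were left without KO_RL mouse 2, and 1 call was left in WT_OL without any one of 12 libraries and in WT_RL without any one of 9.

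Genes for the sterols and lipids that myelin is built from went both ways. *Hmgcs1*, an early enzyme of sterol synthesis, fell by 0.43 in WT_RL (adjusted p = 0.000325 by limma) and by 0.39 in KO_RL (adjusted p = 0.000326). Of 18 genes, 4 rose and 0 fell in WT_OL, 5 rose and 1 fell in KO_OL, and 2 rose and 4 fell in both WT_RL and KO_RL. The called share was 22.2% in WT_OL, beside 9.5% of all genes. It was 33.3% for each of the others, where all genes stood at 23.5% (KO_OL), 15.7% (WT_RL) and 23.6% (KO_RL). In WT_OL 2 were called without WT_Basal mouse 1. Sterol synthesis runs in neurons and astrocytes too, so the list does not mark oligodendrocytes alone.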

How the data were processed

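Poly-A RNA of the hippocampus of 18 mice was sequenced, per the labels with a stranded library kit. The authors aligned the reads with STAR 2.5.1 to mm10, counted them on genes and scaled them by TMM with edgeR 3.12.1 in R 3.3.0. They deposited log2 values for 15329 genes, and these behave as log2(CPM + 1), since each, unlogged and less 1, is a whole number of reads in 100% of cases (tolerance 0.05). Whether strand was used in counting is not stated. Groups came from the labels, and 0 columns were left out. The values were fitted with limma 3.58.1 in R 4.3.3 (1 mean per group, all 18 libraries, variance trend, 12 residual degrees of freedom), two-sided, with Benjamini-Hochberg adjustment over all genes and a threshold of 0.05. An exact permutation test of 3 against 3 mice cannot give a two-sided p under 0.1. The log2 fold change is on the log2(CPM + 1) scale. Correlations used 100000 permutations, in Python 3.11.15 with numpy 2.4.6, pandas 2.3.3 and matplotlib 3.10.9. The smallest possible permutation p was 1e-05 with group means left in. Permutations within groups have fewer distinct arrangements, and the lowest permutation p reached there was 4e-05. Positions are from GENCODE M21 and upstream windows from RefSeq. Named were the 9 members, *Ccny*, of each other list at most the 3 largest rises and 3 largest falls with an adjusted p under 0.05, and the 5 genes most like *Mbp* and *Pdgfra*. Each list holds oligodendrocyte, precursor, regulator, lipid or other cell type genes (pericyte, fibroblast, astrocyte, microglia, hippocampal neuron, thalamus and habenula, hypothalamus, choroid plexus, striatum). The members and lists were chosen with earlier results of these data known. The fit was tested on simulated data. Alternatives were other scales, scalings and filters, voom on recovered reads, library weights, GC correction, a replicate block and leaving out each library.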

Additional observations from a re-analysis of the deposited data

How the results depend on the processing

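With 3 mice per group, 0 of 9 genes passed in each of the 12 comparisons, and with the replicate block, 0 of 9 again passed in each. Replicate numbers did not pair the libraries: deviations of libraries with the same number correlated at a median of -0.0269 over 45 pairs, against 0.0206 over 90 other pairs, and the best partner of 5 of 18 libraries had its own number. The block left 1 gene of newly formed oligodendrocytes called in WT_OL against WT_Basal, where it had been 0, and 2 of the lipid genes in WT_RL against WT_OL, where it had been 5. Library weights, which stopped before convergence, gave 2 members called in WT_OL against WT_Basal, 1 in WT_RL against WT_Basal, 2 in KO_RL against KO_Basal and 3 in KO_OL against WT_OL. Leaving out 1 library gave 0 to 1 members called in WT_OL against WT_Basal, and 0 to 1 in WT_RL against WT_Basal. The other counts of members, the mature to precursor balance and the count of correlated pairs kept to their values within 1.5 times or 1 SD. The cause of these shifts was not tested.

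Signs changed for some estimates near 0. *Olig2* in WT_OL against WT_Basal, at 0.070, was -0.222 with library weights (adjusted p = 0.0154), -0.087 with GC correction and -0.00476 to 0.216 with 1 library left out. The others named here stayed short of the threshold. For KO_OL against WT_OL, *Olig2* was 0.030 with library weights, and *Pdgfra* was -0.050 with TMM undone, -0.012 with GC correction and -0.095 to 0.111 with 1 library left out. For KO_RL against WT_RL, *Mag* was 0.028 with library weights. With 1 library left out there, *Mag* ran from -0.355 to 0.11, *Mog* from -0.337 to 0.0516 and *Cnp* from -0.398 to 0.00255. Averaged over states, *Pdgfra* ran from -0.0083 to 0.0603, and the difference in change to RL for *Mbp* from -0.224 to 0.191. Over all 108 values of the 9 genes, signs changed in 88 of 1944 values with a library left out and in 38 of 1188 others. The lowest value of the 9 genes rested on 519 reads. Undoing TMM shifted the median gene by -0.0556 to 0.0793 per library. Of 605 values of 55 called list genes under settings other than a left-out library, 59 lost the call, 23 of them with GC correction.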
